A study of Danio rerio with 6 samples.

Results

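The transcripts described here encode the transcription factors that start zygotic transcription in the zebrafish embryo or that are tied to pluripotency: *pou5f3*, *nanog*, *sox19b*, *sox19a*, *sox2*, *sox3*, *sox11a*, *klf17*, *vgll4l* and *myca*. They were taken by symbol from the counts of 32057 Ensembl genes, whatever their values. Of the 10 symbols, 8 had an identifier of their own. The name table lists *sox11a* only as SOX11 and *myca* only as MYC, each with a pair of identifiers that it does not tell apart, so both identifiers of each pair are given and the set holds 12 identifiers. Of these, 11 were among the 16126 genes that passed the filter on low counts, and 1 of the MYC pair did not.

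Embryos of the AB/TL line received *in vitro* transcribed mRNA into the yolk at the 1-cell stage and were collected alive at the shield stage (6 hpf, hours post fertilization), when gastrulation has begun. Mcpip1 WT embryos were injected with mRNA of wild-type zebrafish Mcpip1, an RNase encoded by *zc3h12a*, and Mcpip1 DN embryos with a form in which an aspartic acid of the catalytic site is replaced by asparagine. Both forms carry a P2A-mTurquoise tag, so both groups overexpress *zc3h12a* mRNA and no uninjected library entered this comparison. Each group had 3 libraries of poly(A) RNA, each from a pool of about 10 embryos, and only viable embryos were used. The labels do not say whether the pools came from separate clutches, so the p-values measure the spread between these libraries, which may be partly technical.

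The early embryo lives on maternal RNA until its own genome is switched on. In zebrafish, Pou5f3 (the fish relative of mammalian Oct4), the homeodomain protein Nanog and the SoxB1 protein Sox19b are laid down as maternal mRNA, bind the genome before activation and open the regulatory regions of the earliest zygotic genes. The other SoxB1 genes of the set, *sox19a*, *sox2* and *sox3*, are switched on zygotically and become marks of the future neural ectoderm, while *sox19b* is the SoxB1 gene with the main maternal store. The set thus joins factors whose RNA at 6 hpf is partly maternal with factors whose RNA is mostly new.

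The total count on genes was between 22581287 and 24662219 in the Mcpip1 WT libraries and between 17686041 and 23944732 in the Mcpip1 DN libraries. Levels are given below as normalized counts, which set all libraries to one effective size, and always in the order of replicates 1, 2 and 3. *Zc3h12a* (ENSDARG00000005271) stood at 170239, 22302 and 22767 normalized counts among the Mcpip1 WT libraries, against 36491, 16111 and 7907 in the Mcpip1 DN libraries. The name covers a pair of identifiers, and the other, ENSDARG00000101034, had 9.13, 45.0 and 141 normalized counts across Mcpip1 WT, against 56.5, 156 and 183 across Mcpip1 DN. Principal components were taken of log2 CPM, the counts scaled to a common library total. Component 1, with 35.9% of the variance, set Mcpip1 WT replicate 2 and Mcpip1 DN replicate 1 at one end, and so did not separate the groups. On component 2, with 22.7% of the variance, the groups did not overlap. The Mcpip1 WT libraries stood there at -102, 5.88 and 0.40, against 23.1, 12.4 and 60.3 in Mcpip1 DN. Mcpip1 WT replicate 1 lay alone at its end, and Mcpip1 WT replicate 2 lay close to Mcpip1 DN replicate 2. Shield-stage germ ring and organizer genes, summed as a list, were present in every library. Of the 17 identifiers 14 were tested, among them BAMBI ENSDARG00000099677, which had no count in Mcpip1 WT replicates 1 and 2. The other 3, the WNT8A pair and 1 of the FGF8 pair, had no count in any library, which by counting error alone allows up to 3 counts in each. Counts of overlapping genes and close paralogs are uncertain here, so these zeros do not show that the RNA was absent. The summed level of this marker list was between 1842 and 4817 CPM in Mcpip1 WT and between 2378 and 4912 CPM in Mcpip1 DN, with Mcpip1 WT replicate 2 and Mcpip1 DN replicate 1 highest. The summed level of maternal egg transcripts, with all 15 identifiers tested, was between 2889 and 4867 CPM in Mcpip1 WT and between 2350 and 3518 CPM in Mcpip1 DN, and the same pair of libraries was lowest. Yolk syncytial layer markers summed to between 297 and 780 CPM in Mcpip1 WT and between 415 and 718 CPM in Mcpip1 DN. Germ cell markers summed to between 2084 and 2680 CPM in Mcpip1 WT and between 1926 and 2028 CPM in Mcpip1 DN. That sum includes the abundant *h1m*, which is also in the maternal list. Of the 8 tested germ cell markers, 3 had a log2 fold change above 0 and 5 below, with a median of -0.14. The higher sums in Mcpip1 WT thus did not hold for most of these genes. Of the yolk syncytial layer markers TTR had no count in any library, and no gene of these marker lists or of the enveloping layer list passed the threshold given below. The part of these marker differences in the results below was not tested.

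The rule of the study was a fold change over 1.5 at an unadjusted p under 0.05. None of the 11 tested identifiers passed it between Mcpip1 WT and Mcpip1 DN in edgeR's quasi-likelihood test. The study took its p-values from DESeq2, which placed 1 of the 11, *sox19a*, past that rule as lower in Mcpip1 WT. DESeq2 called 1.5% of the same genes as lower. By that rule edgeR's quasi-likelihood test called 2.14% of all genes tested, 0.874% as higher and 1.27% as lower in Mcpip1 WT. None of the 11 had an unadjusted p under 0.05 in edgeR's test at any fold, against 356 of all genes tested, or 2.21%. After Benjamini-Hochberg adjustment edgeR left 0 genes (0.0%) under 0.05, while DESeq2 left 1 among the genes tested by edgeR and 0 among all genes with any count, with 436 and 633 genes at an unadjusted p under 0.05. The log2 fold change was above 0 in 4 and below 0 in 7 of the 11 identifiers, with a median of -0.33, against 0.01 over all genes tested. Every 95% interval of the 11 held 0. Only *nanog* had groups that did not overlap, with Mcpip1 WT higher, against 8.06% of all genes tested, 3.97% with Mcpip1 WT higher and 4.08% with Mcpip1 WT lower.

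**Figure D1:**
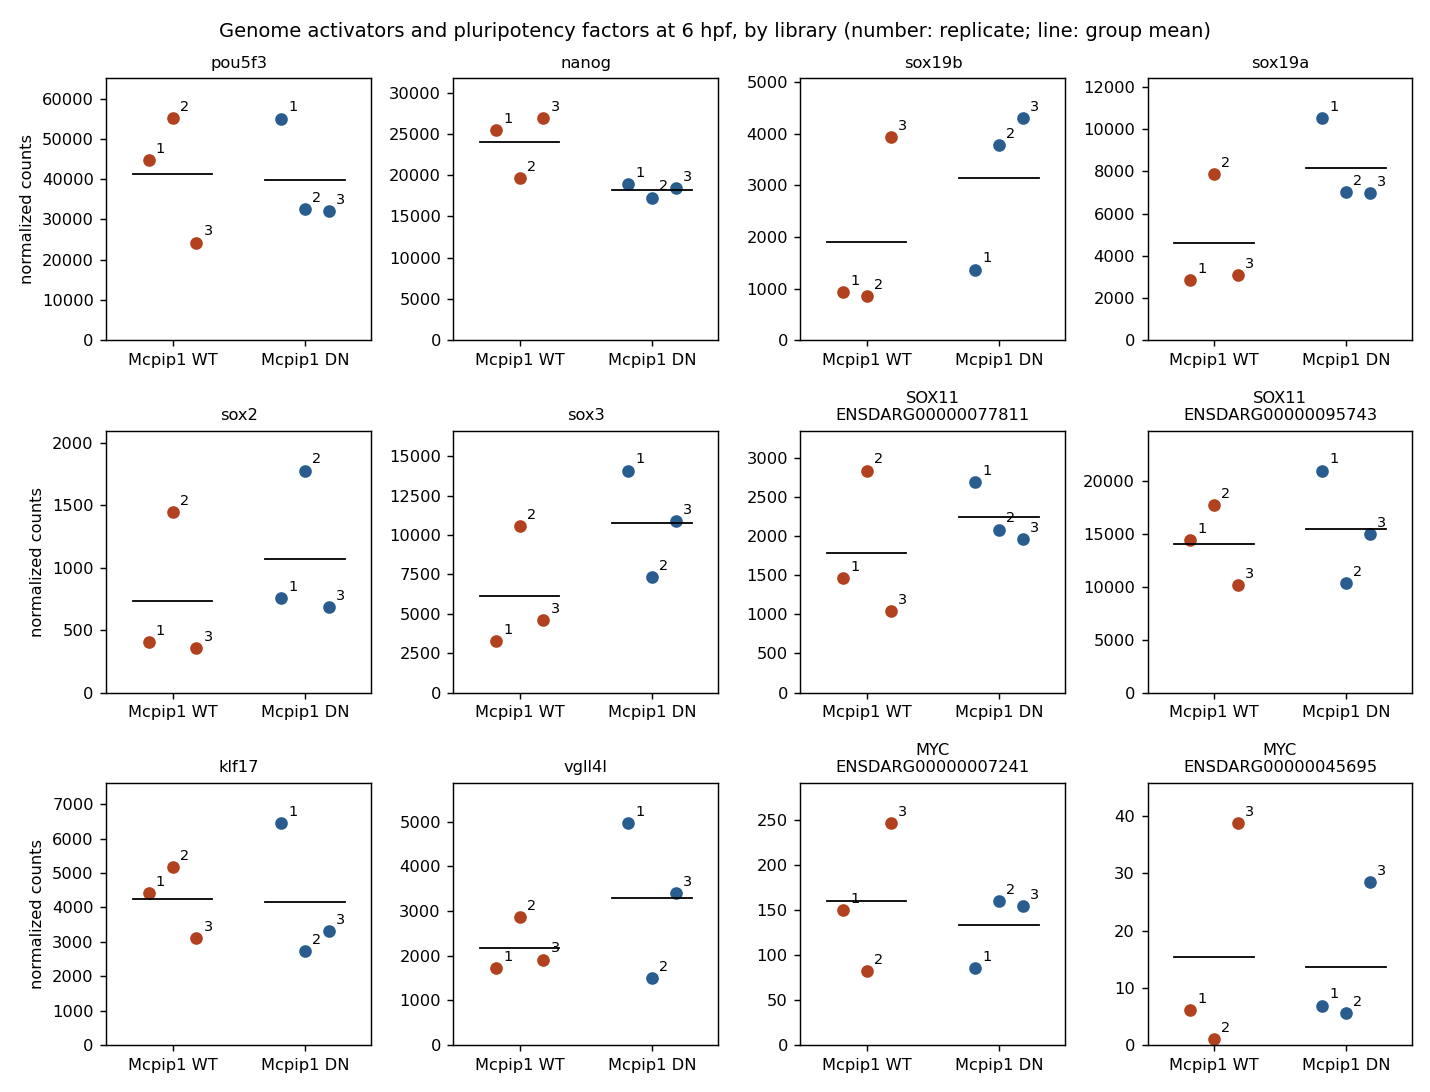
Normalized counts (y axis, linear, from 0) of the 12 identifiers in the 3 Mcpip1 WT and the 3 Mcpip1 DN libraries. Each point is a library, numbered by its replicate, and the line is the group mean. In *nanog* the lowest Mcpip1 WT point, 19632, lies above the highest Mcpip1 DN point, 18958, and in the other 11 panels the groups overlap.

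*Pou5f3* (ENSDARG00000044774) encodes the POU-domain factor that pairs with SoxB1 proteins on DNA. Its level was 44740.3, 55082 and 24237 normalized counts among the Mcpip1 WT libraries, against 55052, 32499.6 and 32022 in the Mcpip1 DN libraries. The highest libraries were Mcpip1 WT replicate 2 and Mcpip1 DN replicate 1, and the lowest was Mcpip1 WT replicate 3. The means were 41353 ± 15699 in Mcpip1 WT and 39858 ± 13161 in Mcpip1 DN (SD, n = 3 each). Between the groups the log2 fold change was 0.05, with a 95% interval from -0.75 to 0.86. Its sign turned in 4 of the 6 fits without 1 library, and the value ran from -0.21 when Mcpip1 WT replicate 2 was left out to 0.36 when Mcpip1 DN replicate 1 was.

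*Nanog* (ENSDARG00000075113), a homeodomain factor with a large maternal store that is also needed for the yolk syncytial layer, was the most even of the set. Mcpip1 WT libraries held 25414, 19632 and 26876 normalized counts, against 18958, 17293 and 18409 in Mcpip1 DN. All Mcpip1 WT libraries lay above all Mcpip1 DN libraries, and replicate 2 of Mcpip1 WT lay close to the Mcpip1 DN range. The means were 23974 ± 3831 in Mcpip1 WT and 18220.3 ± 848 in Mcpip1 DN (SD, n = 3 each). With a log2 fold change of 0.40 (SE, the standard error, 0.26, unadjusted p = 0.15, adjusted p = 1.00, edgeR's quasi-likelihood test) and an interval from -0.17 to 0.96, *nanog* did not pass the threshold. Its value was between 0.30 and 0.52 in the fits without 1 library, and it passed the threshold in none of those fits. Its highest and lowest libraries differed 1.55-fold, the smallest such ratio of the set, against a median of 2.58-fold over all genes tested. Beside it, *h1m* (ENSDARG00000102892), a maternal linker histone of the egg and germ cell lists, stood at 38285, 31957 and 45218 normalized counts among Mcpip1 WT libraries, against 24335, 27076 and 31515 in Mcpip1 DN libraries, also without overlap. It was the only 1 of the 15 maternal transcripts whose groups did not overlap, against 8.06% of all genes tested. Of the 15 maternal transcripts, 14 had a log2 fold change above 0, against 8187 of the 16126 genes tested, and 0 passed the threshold. Their median was 0.26, against 0.01 over all genes tested. By library, the maternal list did not separate the groups. As a mean difference in log2(CPM + 1) from the average of all libraries, it stood at 0.23, -0.44 and 0.50 in Mcpip1 WT. In Mcpip1 DN it stood at -0.46, 0.12 and 0.05.

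*Sox19b* (ENSDARG00000040266), the maternal SoxB1 gene, split the libraries in another way. Its normalized counts were 928, 857 and 3933 across Mcpip1 WT, against 1370.3, 3777 and 4298 across Mcpip1 DN. Mcpip1 WT replicates 1 and 2 and Mcpip1 DN replicate 1 were low, and the other 3 libraries, of which 1 was Mcpip1 WT, were all high. The highest library was 5.02-fold above the lowest, the largest such ratio among the 11 tested identifiers. *Sox19b* had a log2 fold change of -0.72 (SE 0.58, unadjusted p = 0.235, edgeR) and an interval from -1.99 to 0.55. Leaving out Mcpip1 WT replicate 3, the only high Mcpip1 WT library, moved it to -1.81 (unadjusted p = 0.00117, edgeR). That fit called 2.5% of the genes tested as lower in Mcpip1 WT. Without Mcpip1 WT replicate 1 it was -0.39 (unadjusted p = 0.555, edgeR), and without Mcpip1 WT replicate 2 -0.37 (unadjusted p = 0.531, edgeR). When edgeR was run without the filter on low counts, which called 1.76% of 24567 genes as lower, the log2 fold change was again -0.72 and the unadjusted p 0.0165. The difference had not grown, so the lower p-value came from that fit's estimate of the spread. In *nanog*, also at an unchanged fold change, the unadjusted p instead rose from 0.15 to 0.242 (edgeR). All p-values without the filter carry this limit, and its cause was not tested.

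Among the zygotic SoxB1 genes, *sox19a* (ENSDARG00000010770) was the nearest to the threshold. Its Mcpip1 WT libraries had 2847, 7862 and 3099 normalized counts, and its Mcpip1 DN libraries 10515, 7009 and 6985. Replicates 1 and 3 of Mcpip1 WT were below all Mcpip1 DN libraries, and replicate 2 lay within them. Mcpip1 WT differed from Mcpip1 DN by -0.83 on the log2 scale (SE 0.39, unadjusted p = 0.0549, adjusted p = 1.00, edgeR's quasi-likelihood test), with an interval from -1.68 to 0.02. DESeq2 placed *sox19a* past the rule of the study at -0.83, with an unadjusted p of 0.0403 among the genes tested by edgeR, where it called 1.5% as lower, and of 0.0477 among all genes with any count, where it called 1.34% as lower. Without the filter, edgeR gave *sox19a* an unadjusted p of 0.00726 at a log2 fold change of -0.82, with the limit given for *sox19b*. In whole embryos, fewer cells of a type and less RNA per cell cannot be told apart, for this gene or for the others.

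*Sox3* (ENSDARG00000053569), which marks the broad ectoderm and then the neural plate, had the same order within Mcpip1 WT. Normalized counts of 3244, 10548 and 4591 in Mcpip1 WT stood against 14082, 7343 and 10899.7 in Mcpip1 DN, so replicates 1 and 3 of Mcpip1 WT were again the lowest of all 6 libraries. For *sox3* the log2 fold change was -0.81 (SE 0.42, unadjusted p = 0.0761, edgeR), and without the filter its unadjusted p was 0.00968. *Sox2* (ENSDARG00000070913), the SoxB1 gene shared with mammalian stem cells, was measured at 403, 1444 and 357 normalized counts among Mcpip1 WT libraries, against 756, 1777 and 686 among Mcpip1 DN libraries. Mcpip1 DN replicate 2 was the highest and replicates 1 and 3 of Mcpip1 WT the lowest. Its log2 fold change of -0.55 (SE 0.55, unadjusted p = 0.341, edgeR) became 0.02 without Mcpip1 DN replicate 2.

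Leaving out Mcpip1 WT replicate 2 placed all 3 zygotic SoxB1 genes past the rule. Without it, *sox19a*, *sox3* and *sox2* had log2 fold changes of -1.46, -1.46 and -1.50, and unadjusted p-values of 0.000462, 0.00132 and 0.00754 in edgeR's test. With SOX11 ENSDARG00000077811, 4 of the 11 identifiers were then past the rule of the study and lower in Mcpip1 WT. That fit called 3.03% of all genes tested lower, against 1.27% with all 6 libraries. The library left out held the highest Mcpip1 WT value of each of these genes, so its removal lowered the Mcpip1 WT mean. Leaving out Mcpip1 WT replicate 1 instead gave -0.57, -0.51 and -0.25 in *sox19a*, *sox3* and *sox2*. The unadjusted p-values were then 0.202, 0.261 and 0.689 in edgeR's test. Replicates 2 and 3 of Mcpip1 WT had nearly the same *zc3h12a* level, 22302 and 22767 normalized counts. Replicate 2 was 2.54-fold higher in *sox19a*, 2.30-fold in *sox3* and 4.05-fold in *sox2*. *Nanog*, *sox19b* and MYC ENSDARG00000007241 were instead lower in it, at 0.73, 0.22 and 0.33 of replicate 3. Replicate 1, with *zc3h12a* at 170239, had the lowest *sox19a* and *sox3* of all 6 libraries. Replicate 3 instead had the lowest *pou5f3*, *sox2* and both SOX11 identifiers, and replicate 2 the lowest *sox19b* and MYC ENSDARG00000007241. The part of the *zc3h12a* level in these differences was not tested.

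**Figure D2:**
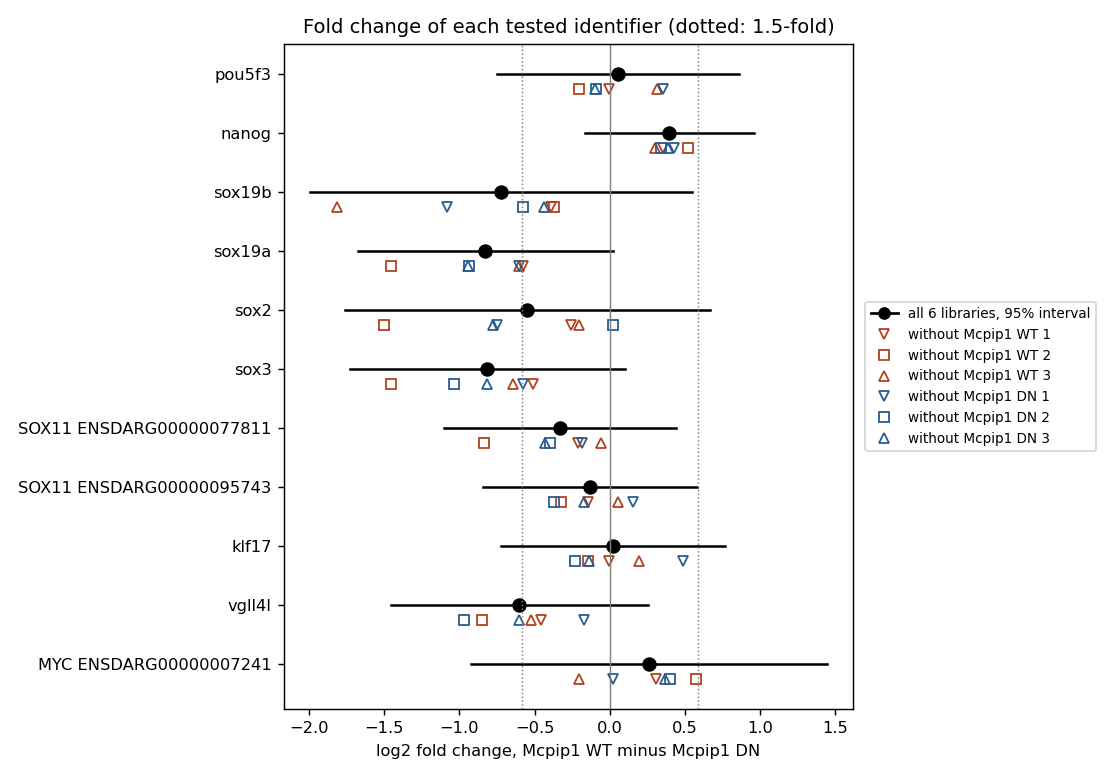
Log2 fold change of Mcpip1 WT against Mcpip1 DN (x axis) of the 11 tested identifiers. Filled points and bars give edgeR's value and 95% interval with all 6 libraries, open marks the value with 1 library left out, and dotted lines a fold of 1.5. All bars cross 0, and the open mark without Mcpip1 WT replicate 2 stands at -1.46 in *sox19a*, at -1.46 in *sox3* and at -1.50 in *sox2*. The open mark without Mcpip1 WT replicate 1 stands at -0.57, -0.51 and -0.25 in the same genes.

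The SoxB1 genes were also compared as shares and ratios of counts within each library, which no scaling between libraries enters. Shares and ratios of counts were not corrected for transcript length, so they were set side by side between libraries and not between genes. Together *sox19b*, *sox19a*, *sox2* and *sox3* summed to 7421, 20710.4 and 11979.5 normalized counts among the Mcpip1 WT libraries, against 26723, 19907 and 22869 in the Mcpip1 DN libraries, and Mcpip1 WT replicates 1 and 3 had the lowest sums. Unlike the shares and ratios, these sums do depend on the scaling between libraries. Of the SoxB1 counts, *sox19b* made up 12.5%, 4.14% and 32.8% in Mcpip1 WT, against 5.13%, 19.0% and 18.8% in Mcpip1 DN. The 95% Wilson intervals of these shares, which cover counting error only, reached at most 0.777 percentage points to either side. The mean share was 16.5 ± 14.8% in Mcpip1 WT and 14.3 ± 7.94% in Mcpip1 DN (SD, n = 3 each), with an exact 2-sided permutation p of 1.0, where 3 libraries against 3 cannot go below 0.1. The difference of 2.19 percentage points became -5.98 when Mcpip1 WT replicate 3 was left out and -2.40 when Mcpip1 DN replicate 1 was.

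The ratio of *sox19a*, the zygotic gene, to its maternal paralog *sox19b* varied more within groups than between them. As a log2 ratio it was 1.62, 3.20 and -0.34 in the Mcpip1 WT libraries, against 2.94, 0.89 and 0.70 in the Mcpip1 DN libraries. Mcpip1 WT replicate 2 and Mcpip1 DN replicate 1 had the most *sox19a* per *sox19b* count, and Mcpip1 WT replicate 3 had the least. The means were 1.49 ± 1.77 in Mcpip1 WT and 1.51 ± 1.24 in Mcpip1 DN (SD, n = 3 each), a difference of -0.02 (exact 2-sided permutation p = 1.0). The difference was 0.90 when Mcpip1 WT replicate 3 was left out and 0.69 when Mcpip1 DN replicate 1 was. The libraries highest in this ratio were also those lowest in maternal egg transcripts, and the part of those transcripts in it was not tested.

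**Figure D3:**
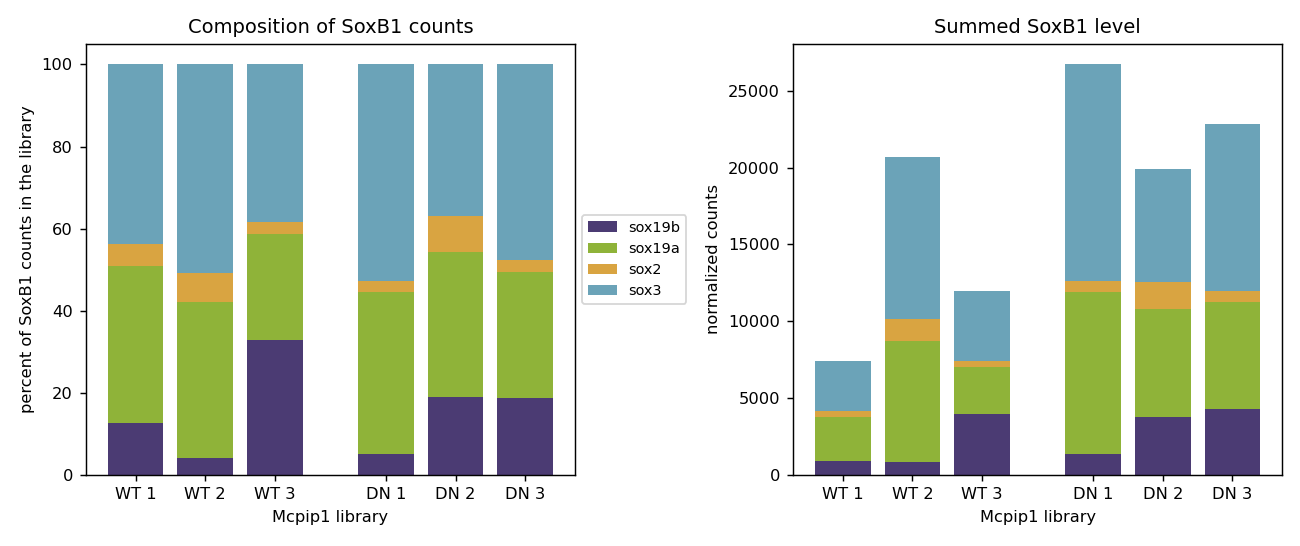
SoxB1 genes by library: on the left each gene as a percent of the SoxB1 counts of its library, on the right the normalized counts stacked by gene, with Mcpip1 WT libraries left of Mcpip1 DN libraries. The share of *sox19b* runs from 4.14% to 32.8% among the Mcpip1 WT libraries, and the sum is lowest in Mcpip1 WT replicate 1, at 7421.

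The SoxC gene *sox11a*, a member of the group that acts in neural cells after the SoxB1 factors, could be either identifier of the SOX11 pair. ENSDARG00000077811 stood at 1464, 2835 and 1046 normalized counts among the Mcpip1 WT libraries, against 2691, 2083 and 1959 in the Mcpip1 DN libraries, and shared with *sox19a*, *sox2* and *sox3* that replicates 1 and 3 of Mcpip1 WT were the lowest of all. Its log2 fold change was -0.33 (SE 0.35, unadjusted p = 0.363, edgeR), and -0.84 with an unadjusted p of 0.0172 without Mcpip1 WT replicate 2. ENSDARG00000095743 stood at 14463, 17729 and 10150.2 normalized counts among the Mcpip1 WT libraries, against 21019.7, 10359 and 14990.1 in the Mcpip1 DN libraries. Its log2 fold change of -0.13 (unadjusted p = 0.693) went to 0.05 without Mcpip1 WT replicate 3 and to 0.15 without Mcpip1 DN replicate 1. The paralogs thus had different orders of libraries, and neither passed the threshold with all 6.

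*Klf17* (ENSDARG00000038792), a Krüppel-like zinc finger factor expressed from the onset of zygotic transcription, and *vgll4l* (ENSDARG00000068409), a vestigial-like cofactor of the kind that binds Tead factors, represent the early zygotic output. *Klf17* was at 4415, 5175 and 3113 normalized counts among Mcpip1 WT libraries, against 6458, 2730.2 and 3317 among Mcpip1 DN libraries. Its log2 fold change was 0.02 (interval -0.72 to 0.77), with Mcpip1 DN replicate 1 the highest and Mcpip1 DN replicate 2 the lowest, so that a single group held both extremes. With 1 library left out it ran from -0.23 to 0.48. *Vgll4l* was at 1717, 2864 and 1913 normalized counts among Mcpip1 WT libraries, against 4970.2, 1488 and 3394 among Mcpip1 DN libraries. The same Mcpip1 DN libraries were again the highest and the lowest. *Vgll4l* had a log2 fold change of -0.60 (SE 0.39, unadjusted p = 0.151, edgeR), and of -0.17 without Mcpip1 DN replicate 1. It was past the rule at -0.97 without Mcpip1 DN replicate 2 (unadjusted p = 0.0174), in a fit that called 1.03% of genes as lower, and at -0.60 without the filter (unadjusted p = 0.0428).

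For *myca*, a fish counterpart of the growth regulator MYC, both identifiers had few reads. ENSDARG00000007241 collected 148, 80 and 299 raw counts in the Mcpip1 WT libraries, against 62, 173 and 157 in the Mcpip1 DN libraries, with Mcpip1 WT replicate 3 highest. Its log2 fold change was 0.26 (SE 0.54, unadjusted p = 0.637, edgeR), and -0.20 without Mcpip1 WT replicate 3. ENSDARG00000045695 collected 6, 1 and 47 raw counts in the Mcpip1 WT libraries, against 5, 6 and 29 in the Mcpip1 DN libraries, below the filter on low counts, and was not tested. At this depth a difference in it was not detectable.

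The order of libraries was shared across much of the set, although neither group was uniform. Mcpip1 WT replicate 2 was the highest Mcpip1 WT library in 8 of the 11 tested identifiers, against 34.7% of all genes tested. Mcpip1 DN replicate 1 was the highest Mcpip1 DN library in 8 of the 11, against 35.4% of all genes tested, and in 7 identifiers both held. These 7 were *pou5f3*, *sox19a*, *sox3*, both SOX11 identifiers, *klf17* and *vgll4l*. The share of all genes tested in which both held was not computed. Since these libraries also lay together on component 1, it cannot be taken from the shares of each, and the 7 stand without a background. As a mean difference in log2(CPM + 1) from the average of all libraries, germ ring and organizer genes stood at 0.51 in Mcpip1 WT replicate 2 and at 0.42 in Mcpip1 DN replicate 1, and at -0.79 in Mcpip1 WT replicate 3. Maternal egg transcripts stood at -0.44 in Mcpip1 WT replicate 2, at -0.46 in Mcpip1 DN replicate 1 and at 0.50 in Mcpip1 WT replicate 3. MYC ENSDARG00000007241, at -0.62 in Mcpip1 WT replicate 2, -0.57 in Mcpip1 DN replicate 1 and 0.75 in Mcpip1 WT replicate 3, was low and high in the same libraries as the maternal list. *Sox19b* had the same signs in these libraries, at -1.23, -0.56 and 0.94, but was also low in Mcpip1 WT replicate 1, at -1.11. *Nanog* had these signs too, at -0.08 in Mcpip1 WT replicate 2, -0.13 in Mcpip1 DN replicate 1 and 0.37 in Mcpip1 WT replicate 3. Within Mcpip1 DN, however, *nanog* did not follow the maternal list. It was lower still in replicates 2 and 3, at -0.27 and -0.18, where the maternal list stood at 0.12 and 0.05. Enveloping layer markers, of which 10 of 11 were tested, stood at 0.38, 0.44 and -0.64 in the same libraries, and summed to between 6176 and 11644 CPM in Mcpip1 WT and between 8571 and 13490 CPM in Mcpip1 DN. The genes share libraries and depth, so these orders are not independent of each other.

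**Figure D4:**
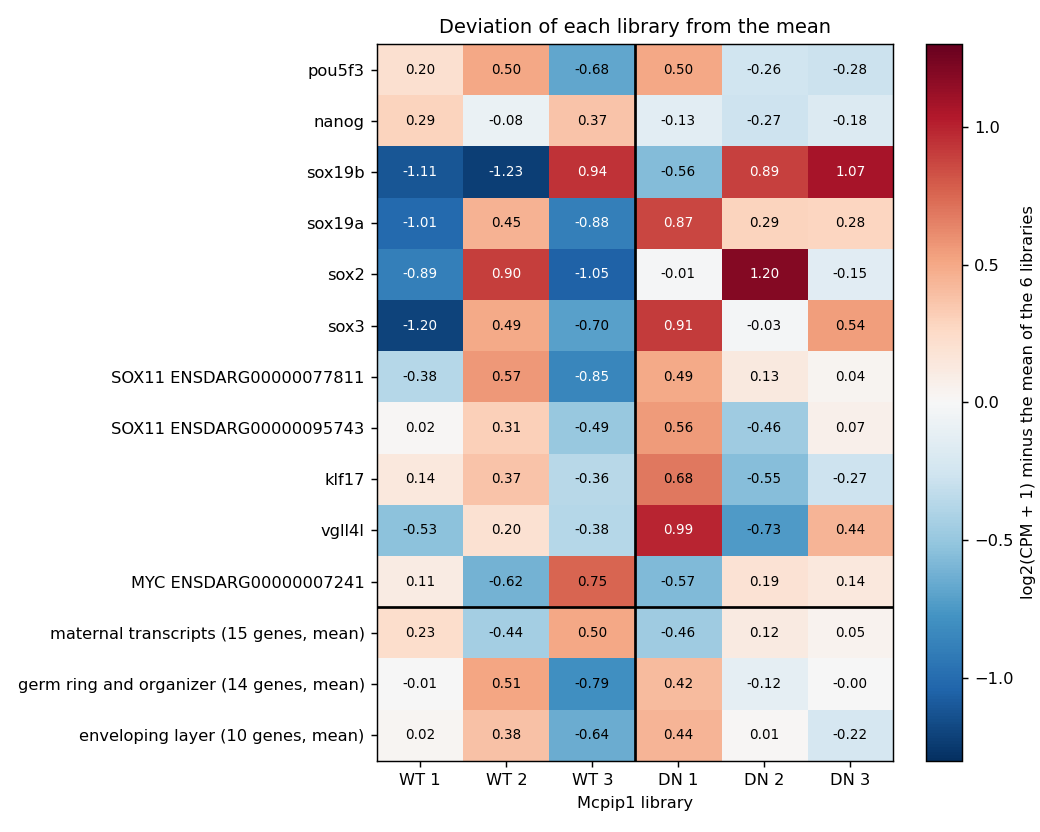
Difference of log2(CPM + 1) in each library (columns) from the mean of the 6 libraries, for the 11 tested identifiers and, below the line, as the mean over the genes of 3 marker lists. Red is above and blue below the mean. *Pou5f3* reads 0.50 in both Mcpip1 WT replicate 2 and Mcpip1 DN replicate 1 and -0.68 in Mcpip1 WT replicate 3.

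Relatives and partners of the set were described by lists chosen for known roles. Among early zygotic genes known to need Pou5f3, Nanog or SoxB1, 19 identifiers were tested, 11 had a log2 fold change above 0 and 8 below, and the median was 0.06. One of them passed the rule of the study: ZNF281 ENSDARG00000035910, a zinc finger factor of early embryos, fell to 4919, 5786 and 5029.7 normalized counts in Mcpip1 WT, against 7855, 7545 and 8526 in Mcpip1 DN (log2 fold change -0.60, SE 0.22, unadjusted p = 0.0209, adjusted p = 1.00, edgeR). The name covers a pair of identifiers that the name table does not tell apart, and the other was tested and did not pass. ENSDARG00000035910 passed in 3 of the 6 fits without 1 library. Its unadjusted p in edgeR's test was 0.0677, 0.0527 and 0.073 when Mcpip1 WT replicate 1, Mcpip1 WT replicate 3 or Mcpip1 DN replicate 3 was left out. *Mxtx2* (ENSDARG00000015906), a direct target of Nanog in the yolk syncytial layer, had the highest log2 fold change of the list, 0.77 (unadjusted p = 0.117).

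Among 11 tested identifiers of other pluripotency genes, 2 had a log2 fold change above 0 and 9 below, with a median of -0.22. LIN28A ENSDARG00000016999, an RNA-binding protein that blocks let-7 maturation, fell to 859, 1358 and 1231 normalized counts in Mcpip1 WT, against 1664, 1981 and 1562 in Mcpip1 DN (log2 fold change -0.59, SE 0.27, unadjusted p = 0.049, edgeR). The name covers a pair of identifiers, and the other was not past the rule. The call of ENSDARG00000016999 held only in 1 of the 6 fits without 1 library, that without Mcpip1 WT replicate 2 (unadjusted p = 0.0343), and reached an unadjusted p of 0.179 without Mcpip1 WT replicate 1. It was also lost in both DESeq2 fits, with size factors in place of TMM and without the filter. PRDM14 ENSDARG00000045371 had the lowest log2 fold change of this list, -1.01, on 19.3, 285 and 31.4 normalized counts across Mcpip1 WT, against 123, 445 and 107 across Mcpip1 DN (unadjusted p = 0.299), and the libraries with its highest values were those with the highest *sox2*.

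Of the other Krüppel-like factors, 11 identifiers were tested, 6 above 0 and 5 below, with a median of 0.03. KLF11 ENSDARG00000013794, a TGF-beta-inducible repressor in mammals, rose to 136, 366 and 288 normalized counts in Mcpip1 WT, against 88.1, 134 and 108 in Mcpip1 DN (log2 fold change 1.26, SE 0.48, unadjusted p = 0.0249, edgeR), and stayed past the threshold only without Mcpip1 WT replicate 1 (unadjusted p = 0.00882) or Mcpip1 DN replicate 2 (unadjusted p = 0.0376) when 1 library was left out. The name KLF11 covers a pair of identifiers, and the other was not past the rule. KLF4 ENSDARG00000079922, the relative of the mammalian reprogramming factor, had the lowest value, -0.91 (unadjusted p = 0.199).

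In the Myc network, 11 identifiers outside the set were tested, 4 above 0 and 7 below, with a median of -0.17 and none past the threshold. MYCN ENSDARG00000006837 held 119.6, 620.5 and 217 normalized counts across Mcpip1 WT, against 799, 613 and 532 across Mcpip1 DN, again with replicates 1 and 3 of Mcpip1 WT lowest (log2 fold change -1.02, unadjusted p = 0.0796, edgeR). MXD3 ENSDARG00000098350, an antagonist of Myc at Max, was the highest of the list at 0.57 (unadjusted p = 0.124).

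Tead factors, Yap, Taz and the remaining vestigial-like genes had 9 tested identifiers, 1 above 0 and 8 below, with a median of -0.21. WWTR1 ENSDARG00000067719, which encodes Taz, was lowest at -0.91 (unadjusted p = 0.187, edgeR). VGLL3 ENSDARG00000038305 was highest at 0.41 (SE 1.11, unadjusted p = 0.717, edgeR), on 1.38 to 50.0 normalized counts. Coactivators and remodellers of genome activation, such as the acetyltransferases EP300 and CREBBP, had 13 tested identifiers, 4 above 0 and 9 below, with a median of -0.13. *Kdm6bb* (ENSDARG00000056929) had the lowest value, -1.02, on at most 110.2 normalized counts in any library. Of the other SoxB and SoxC genes, without the SOX11 pair, 4 of 10 identifiers passed the filter on low counts and were tested, 1 above 0 and 3 below, none past the threshold. Their extremes were *sox21a* (ENSDARG00000031664) at 0.37 and SOX4 ENSDARG00000004588 at -1.14, with SOX4 on 9.21 to 104 normalized counts. *Sox21a* (SE 1.41) had at most 56.2 normalized counts and none in Mcpip1 WT replicate 2. Together, these 7 lists held 77 tested identifiers, each counted once, of which 3 (3.90%) were past the rule of the study, against 2.14% of all genes tested. Of these, 1 was higher and 2 were lower, where 0.874% and 1.27% of all genes tested were.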

How the data were processed

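RNA-seq of 3 Mcpip1 WT and 3 Mcpip1 DN libraries of zebrafish embryos (6 hpf) was analysed. The authors mapped Ion Proton reads to GRCz11 with STAR (version 2.7.10a) and Bowtie2 (version 2.4.4) for unmapped reads, and deposited raw counts per Ensembl gene from htseq-count, whose version and strand setting are not given in the sources used here. Overlapping genes, antisense genes and close paralogs are therefore uncertain. The 5 closing rows of reads given to no gene, 16.5% to 26.1% of all counts, were left out. Groups and replicate numbers came from the sample titles. Symbols came from the gene name table (28988 of 32057 identifiers); where a name covered a pair of identifiers, both were taken. No gene coordinates, lengths or sequences were used, so levels are not compared between genes.

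In R 4.3.3, edgeR 4.0.16 was run with filterByExpr (minimum count 10), TMM scaling, and glmQLFit and glmQLFTest without covariates. Standard errors are the log2 fold change divided by the root of F. Intervals are 95% and cover the 6 libraries only; no molecular identifiers are named for the reads. Adjustment was over all 16126 genes tested. The threshold was that of the study, p under 0.05 with a fold over 1.5, which the study applied to p-values from DESeq2. On simulated counts with 200 changed genes, edgeR's test recovered 42.5% of 2-fold and 76.0% of 4-fold changes at this threshold. It made 621 and 677 false calls among 15324 and 15275 genes, against 345 calls of any kind among 16126 genes in the real libraries. The simulated counts were drawn for each gene on its own, without the order of libraries that the real genes share. How far these rates carry over to the real libraries was not tested. All genes of the set are named, and from each other list those past the threshold and otherwise the highest and lowest, of which 1 is not reported here. The set and the lists were chosen with earlier results of these data known. Alternatives were DESeq2 1.42.0 (genes tested by edgeR, or all genes with any count), size factors for TMM, normalization without *zc3h12a*, no filter, a block for the replicate number, and each library left out.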

Additional observations from a re-analysis of the deposited data

How the results depend on the processing

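With all 6 libraries, edgeR's test placed 141 genes higher and 204 lower in Mcpip1 WT past the threshold, and 0 of the 11 identifiers of the set. Among all genes with any count, these gene numbers were 296 and 328 in DESeq2 and 336 and 432 in edgeR. With 1 library left out they ran from 69 to 291 higher and from 75 to 512 lower. The number of identifiers of the set past the threshold and lower was 1 with DESeq2 on either gene set, 4 in edgeR without the filter, 3 with the replicate block, and 0 to 4 with 1 library left out. The cause was not tested. DESeq2 gave *sox19a* -0.83 on both gene sets. Without the filter, edgeR gave *sox19b* -0.72, *sox19a* -0.82, *sox3* -0.81 and *vgll4l* -0.60, all past the threshold. These values were nearly those with the filter, so the calls rest on that fit's estimate of the spread and not on larger differences.

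The replicate number was shared by 1 library of each group. Deviations from the group means correlated at 0.01, -0.08 and 0.30 across genes in the 3 same-numbered pairs, and not every library correlated best with its own number. These values cannot tell whether same-numbered pools share a clutch, and the labels do not say. With the replicate number as a block, *sox19b* was -0.93, *sox19a* -0.97 and *sox2* -0.72, each past the threshold, and 288 genes were lower, 1.79% of those tested.

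With 1 library left out, log2 fold changes ran from -0.21 to 0.36 in *pou5f3*, from -1.81 to -0.37 in *sox19b*, from -1.46 to -0.57 in *sox19a*, from -1.50 to 0.021 in *sox2* and from -1.46 to -0.51 in *sox3*. They ran from -0.84 to -0.061 in SOX11 ENSDARG00000077811, from -0.37 to 0.15 in SOX11 ENSDARG00000095743, from -0.23 to 0.48 in *klf17*, from -0.97 to -0.17 in *vgll4l* and from -0.20 to 0.58 in MYC ENSDARG00000007241. The difference in the *sox19b* share ran from -5.98 to 8.37 percentage points, and that in the log2 ratio of *sox19a* to *sox19b* from -0.87 to 0.90. Size factors in place of TMM and normalization without *zc3h12a* changed no call of the set. To reach an unadjusted p of 0.05, an identifier of the set needed a log2 fold change of between 0.56, in *nanog*, and 1.27, in *sox19b*.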

Other observations

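The ratio of *nanog* to *pou5f3* counts within a library was chosen after the values had been seen. As a log2 ratio it was -0.82, -1.49 and 0.15 in the Mcpip1 WT libraries (replicates 1, 2 and 3), against -1.54, -0.91 and -0.80 in the Mcpip1 DN libraries. Mcpip1 WT replicate 3 had the highest ratio, and Mcpip1 DN replicate 1 and Mcpip1 WT replicate 2 the lowest. The means were -0.72 ± 0.82 in Mcpip1 WT and -1.08 ± 0.40 in Mcpip1 DN (SD, n = 3 each), a difference of 0.36 (exact 2-sided permutation p = 0.5, where 3 libraries against 3 cannot go below 0.1).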
